A study of Mus musculus with 2 samples.

Results

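At E15.5 (the embryonic day), 503 droplet barcodes of mouse limb muscle tissue carried the transcripts of at least 2 of 3 matrix genes, Clec3b, Mfap5 and Dpt, with 2 or more unique molecular identifiers (UMIs) of each. They had 0 UMIs of Myog, Cdh5 and Ptprc, which mark differentiating muscle, endothelial and blood-derived cells. They made up 12.3% (95% interval 11.3 to 13.3) of the 4106 barcodes kept, which had 500 or more genes and mitochondrial UMIs under 10%, out of 5780 deposited at E15.5 and 18721 in the whole series. The barcodes were chosen by these UMI values, so the levels of the rule's genes are given below as a description only. The study sequenced single cells of wild-type (WT) C57Bl/6 limb muscle at both E12.5 and E15.5; each age has a single library, which holds tissue of forelimbs and hindlimbs together. Cells had been released mechanically and with trypsin and captured with a 3-prime droplet kit. The labels do not say how many embryos were pooled or of which sex. With 1 library per age there was no replicate check and no test was possible, and every interval is a 95% interval that covers counting error only.

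Fibroblasts are the connective tissue cells that secrete collagen and the other fibres and gels between cells. In adult organs, fibroblasts with Dpt, Pi16, Dpp4, Cd55 and Ly6a lie in fascia and in the adventitia around vessels, and are known as interstitial or adventitial fibroblasts. Clec3b encodes tetranectin, a secreted lectin-like protein that binds plasminogen. Mfap5 encodes a glycoprotein of the microfibrils on which elastic fibres form, and Dpt encodes dermatopontin, a small matrix protein that binds decorin.

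The genes with the highest ratios beyond the rule included a pair of cell-surface proteins, Dpp4 (CD26, a dipeptidyl peptidase) and Cd55 (decay-accelerating factor, a complement inhibitor). The 250 bases before their RefSeq transcript starts (build GRCm38.p6, read on the strand of the gene, 5' to 3') are shown because both genes were among the 6 with the highest ratios and both windows lie outside annotated exons. Capitals mark matches to 5 short motifs that were searched on both strands: CCNCACCC (KLF factors), TGANTCA (AP-1), AGATAA (zinc finger factors of the Gata6 family), TATAAA (a core promoter element) and GGAATG (TEAD factors).
Dpp4, chr2:62412232-62412481, minus strand: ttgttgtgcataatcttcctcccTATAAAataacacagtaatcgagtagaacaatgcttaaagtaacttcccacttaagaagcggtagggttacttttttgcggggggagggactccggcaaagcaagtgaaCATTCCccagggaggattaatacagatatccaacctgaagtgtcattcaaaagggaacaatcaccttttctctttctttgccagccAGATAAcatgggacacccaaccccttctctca
Cd55, chr1:130462745-130462994, minus strand: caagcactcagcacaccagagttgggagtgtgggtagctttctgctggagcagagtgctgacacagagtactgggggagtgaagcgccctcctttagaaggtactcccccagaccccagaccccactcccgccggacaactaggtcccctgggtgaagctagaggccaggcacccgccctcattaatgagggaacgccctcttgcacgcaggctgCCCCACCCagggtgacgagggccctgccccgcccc
In the Dpp4 window the first base of the AGATAA match lay 32 bases before the start, that of the GGAATG match (as CATTCC) 118 and that of TATAAA 227. The Cd55 window held a match of the KLF motif 35 bases before the start. The Dpt window held none of the 5 motifs. A KLF match was present in 14.9% of all 32851 RefSeq promoters, in 18.0% of the 8779 promoters of genes measured in the comparison below and in 25.1% of the 171 promoters of genes at least 2-fold higher in it (135 of 194 such genes had a promoter entry). AGATAA was present in 9.99%, 5.16% and 7.02% of the same sets, GGAATG in 12.6%, 10.1% and 10.5%, TATAAA in 12.4%, 6.30% and 8.77%, and TGANTCA in 6.75%, 3.66% and 8.19%. A match says only that the letters are present, and a missing match says nothing of a factor.

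The 503 barcodes had a median of 11176 UMIs (1764 to 54632) and 3499 genes. Those set against them, the other 2784 kept E15.5 barcodes with at least 3 Col3a1 UMIs, had a median of 9392.5 UMIs and 3092 genes. Of these comparison barcodes, 295 had a UMI of Myog, Cdh5 or Ptprc and 1126 (40.4%) had a UMI of at least 1 of the 3 rule genes. The comparison group is therefore mixed, and 819 kept barcodes were in neither group. Narrower groups are given beside it, all with 0 UMIs of Myog, Cdh5 and Ptprc: 500 barcodes with at least 2 Osr1 UMIs (Osr1 marks muscle connective tissue), 177 tendon barcodes with at least 2 UMIs each of 2 of Tnmd, Scx, Fmod and Thbs4, and 940 barcodes with at least 2 Pdgfra UMIs. None of these groups holds any of the 503. They share barcodes with the comparison group (497 of the Osr1 and 175 of the tendon barcodes), so results against them are not separate evidence. The 2 libraries shared 17 barcode sequences, 1 of them among the 503.

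The label was checked on fibroblast genes that the rule did not use. With every barcode thinned at random to 5000 UMIs (496 of 503 deep enough), Col1a1 and Col1a2, the chains of type I collagen, were detected in 100% of these fibroblasts. Decorin (Dcn) was detected in 96.6%, lumican (Lum) in 83.3% and the growth factor receptor Pdgfra in 48.0%. In 133 barcodes with at least 2 Cdh5 UMIs, used here to show the level of free RNA, Col1a1 was detected in 39.1%, Col1a2 in 30.1%, Dcn in 5.26%, Lum in 6.02% and Pdgfra in 2.26%, at a median depth of 13144 UMIs before thinning. Every one of the 503 also had at least 3 Col3a1 UMIs, the lowest 6 and the median 70.

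All 3 rule genes reached 2 UMIs in 202 of the fibroblasts (40.2%, 35.8 to 44.6). Another 105 qualified by Clec3b and Mfap5, 94 by Clec3b and Dpt, and 102 by Mfap5 and Dpt. The 3 pairs were thus of similar size. Clec3b (chr9:123150946-123157432, as all gene positions here from GENCODE vM21 on GRCm38) ranged from 0 to 23 UMIs per fibroblast with a median of 3, Mfap5 (chr6:122505845-122529290) from 0 to 57 with a median of 4, and Dpt (chr1:164796644-164824266) from 0 to 85 with a median of 5. Before the exclusion, 548 barcodes had 2 of the 3 genes; 28 were dropped for a Myog UMI, 15 for Cdh5 and 3 for Ptprc, 45 in all. At the edge of the rule, the 144 fibroblasts whose second-highest rule gene stood at 2 UMIs had 13.4 CPM of Pi16 (UMIs of the gene per 1000000 UMIs of the group), 62.4 of Cd55 and 335 of Fbn1. The 193 barcodes just outside, where it stood at 1, had 4.33, 32.0 and 237 CPM. Cd55 stood at 4.88 CPM in 1515 comparison barcodes with no rule-gene UMI, 67.0 in fibroblasts with exactly 2 genes and 166 in those with all 3. Pi16 stood at 0.936, 14.3 and 41.9 CPM in the same groups. The groups are ordered by the rule genes' own counts, so neither a slope nor a step is read from them.

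No barcode met the rule at E12.5, 0 of 12271 kept, which allows a share of up to 0.0244%. Depth differed strongly between the libraries (medians of 9518 and 2453 UMIs over kept barcodes), so both were also thinned to 2000 UMIs. Then 82 of 3834 E15.5 barcodes met the rule (2.14%, 1.70 to 2.65) and 0 of 8212 at E12.5 (up to 0.0365% at 3 counts, exact upper bound 0.0449%). The kept E12.5 barcodes held 7 UMIs of Clec3b, 42 of Mfap5 and 15 of Dpt, out of 34410322 UMIs, against 3076, 4312 and 6833 out of 44031345 at E15.5. The count at E12.5 was also 0 when 1 UMI per rule gene was enough. Age and library cannot be told apart with 1 library per age.

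Against the comparison barcodes, 194 of 8643 genes were at least 2-fold higher in the Clec3b, Mfap5 and Dpt fibroblasts (2.24%) and 156 at least 2-fold lower (1.8%). The genes measured had a mean of at least 10 CPM over the 2 groups, and the 7 genes that the rule or the comparison used were left out. The median gene differed by a log2 ratio of -0.017. The 20 genes with the highest ratios were Ly6a, Adgrd1, Pi16, Dpp4, Wnt2, Cd55, Htr1f, Has1, Ccn3, Cpz, Ahnak2, Col5a3, Pi15, Igfbp6, Tnxb, Slco2a1, Tek, Sqor, Gata6 and Vegfd. Each of these 20 was also at least 2-fold higher than in the Osr1, the tendon and the Pdgfra barcodes. Over all genes, 1.57% of 8599 were at least 2-fold higher than in Osr1 barcodes and 0.605% lower, 5.91% of 8555 higher than in tendon barcodes and 3.66% lower, and 1.81% of 8633 higher than in Pdgfra barcodes and 1.23% lower. This contrast was chosen by the rule itself, so the counts are a description.

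Several surface proteins of interstitial fibroblasts were among the 20 highest genes. Ly6a (chr15:74994877-74998031), which encodes the stem cell antigen Sca-1, stood at 49.0 CPM (43.6 to 54.8) against 3.64 (2.99 to 4.40), a log2 ratio of 3.75 (3.43 to 4.08). Pi16 (chr17:29317680-29330593), a peptidase inhibitor of the cell surface, stood at 26.7 CPM (22.8 to 31.0) against 2.06 (1.57 to 2.64), log2 3.70 (3.26 to 4.14). Dpp4 (chr2:62330073-62412231) stood at 37.7 CPM (33.1 to 42.9) against 3.17 (2.56 to 3.88), log2 3.57 (3.22 to 3.93). These were differences of about 13.4-fold, 13-fold and 11.9-fold, and the intervals of the groups did not overlap. Ly6a belongs to a family of close copies, so its counts are less certain where reads match several of them. Cd55 (chr1:130439027-130462744) stood at 111 CPM (103 to 120) against 12.7 (11.5 to 14.1), log2 3.13. Adgrd1, an adhesion receptor coupled to G proteins, stood at 27.6 CPM against 2.13, log2 3.70 (3.28 to 4.14).

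None of these surface genes was detected in every fibroblast. At 5000 UMIs, Ly6a was found in 13.9% of them (11.0 to 17.3), Pi16 in 8.47% (6.17 to 11.3), Dpp4 in 17.5% (14.3 to 21.2) and Cd55 in 28% (24.1 to 32.2). In the comparison barcodes the shares were 1.18%, 0.943%, 1.61% and 4.99%, and in Osr1 barcodes 0.412%, 1.03%, 2.27% and 6.6%. Without thinning, Ly6a was found in 19.5% and 2.19% of the 2 main groups, Pi16 in 13.9% and 1.76%, Dpp4 in 26.4% and 2.77%, and Cd55 in 41.4% and 7.65%. Per barcode the counts were low, from 0 to a highest value of 23 for Ly6a, 11 for Pi16, 8 for Dpp4 and 21 for Cd55, with a median of 0 for each. In Cdh5 barcodes Pi16 was found in 0 of 133, which allows up to 2.26%, Dpp4 in 0.752% and Cd55 in 3.01%.

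**Figure D1:**
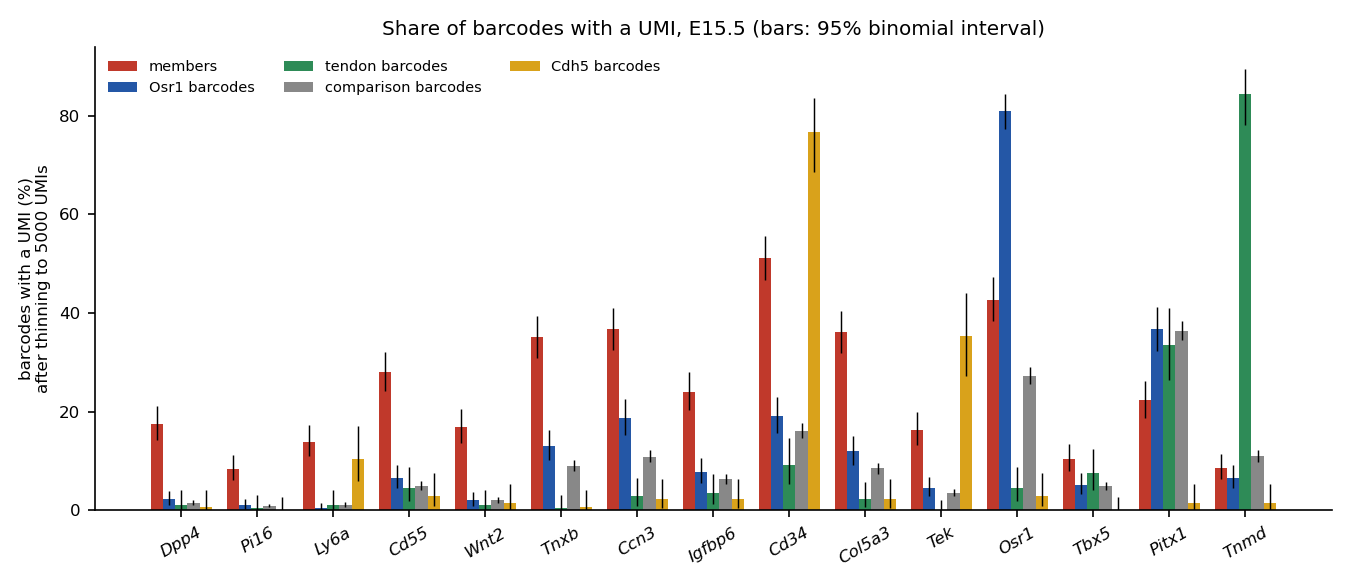
Share of barcodes with at least 1 UMI of each of 15 genes after thinning to 5000 UMIs per barcode, in percent. Each of 5 groups of E15.5 barcodes has a bar, with a thin line for its exact binomial 95% interval. Cd34 was found in 51.2% of the fibroblasts and in 76.7% of the Cdh5 barcodes, while Cd55 was found in 28% and 3.01%.

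Some of the genes are shared with endothelial cells. Cd34, a sialomucin of both cell types, stood at 196 CPM in the fibroblasts and 45.8 in the comparison barcodes (log2 2.10, 1.98 to 2.21), and was found in 51.2% and 16.2% of them at 5000 UMIs. Tek (chr4:94739289-94874976), the angiopoietin receptor, stood at 40.6 CPM against 8.64 (log2 2.23, 1.98 to 2.49) and at 8.70 in Osr1 barcodes, with 0 UMIs in tendon barcodes. In Cdh5 barcodes, Cd34 was found in 76.7%, Tek in 35.3% and Ly6a in 10.5%. Other endothelial genes were low but not all near 0 in the fibroblasts. Pecam1, Esam, Tie1 and Plvap had 1 UMI each over all 503, Cldn5 had 5 and Emcn 15, while Kdr had 51, Flt1 65 and Egfl7 71. Egfl7 was at least 2-fold lower than in the comparison barcodes (11.4 CPM against 24.1), and Flt1 stood at 10.4 against 12.4. The rule barred Cdh5 UMIs from the fibroblasts and not from the comparison barcodes, so it bears on these values. Of the 4 endothelial genes measured, none was 2-fold lower than in Osr1 barcodes, which had the same exclusion, beside 0.605% of all genes. The part of endothelial RNA in the ratios of Cd34, Tek and Ly6a was not tested. The 11 endothelial genes summed to 162 CPM against 136, most of it from Ramp2 (87.5 CPM) and Tek.

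The genes known from interstitial fibroblasts of adult organs were described as a list of 28, chosen with earlier results of these data known. Of the 24 measured, 19 were at least 2-fold higher, none at least 2-fold lower, and the median log2 ratio was 1.69, beside -0.017 over all genes. Summed, they stood at 2346 CPM (2308 to 2384) in the fibroblasts, 842 (831 to 852) in the comparison barcodes, 1014 in Osr1, 914 in Pdgfra and 672 in tendon barcodes. Of the 24, 15 were at least 2-fold higher than in Osr1 barcodes, 18 than in Pdgfra barcodes and 21 than in tendon barcodes. Over all genes these shares were 1.57%, 1.81% and 5.91%. Cd248, the glycoprotein endosialin of fibroblasts and pericytes, stood at 205 CPM against 63.7 (log2 1.69). Sema3c, a secreted guidance cue, stood at 232 CPM against 62.0 (log2 1.90) and at 45.8 in Osr1 but 116 in tendon barcodes. The 5 that stayed within 2-fold were Creb5, Uchl1, Opcml, Il33 and Entpd2.

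**Figure D2:**
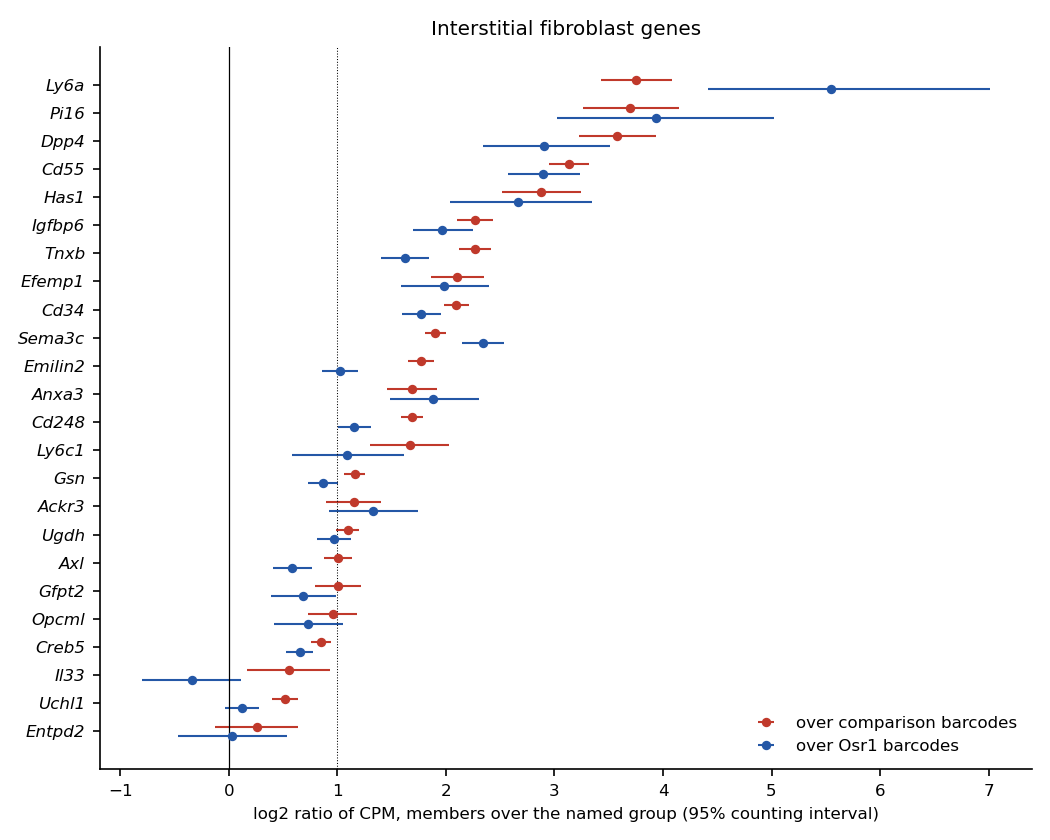
Log2 ratio of each interstitial fibroblast gene in the 503 fibroblasts over the comparison barcodes and over the Osr1 barcodes, with exact conditional 95% intervals. Against the comparison barcodes the 24 measured genes lie above 0, from 0.26 for Entpd2, whose interval includes 0, to 3.75 for Ly6a.

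Counted per barcode, the 28 genes separated the groups only in part. At 5000 UMIs, a fibroblast had a median of 10 UMIs of the 28 genes (0 to 44), a comparison barcode 4 (0 to 34), an Osr1 barcode 5 (0 to 30) and a tendon barcode 3 (0 to 15). The ranges overlapped widely. The 90th percentile was 22 UMIs in the fibroblasts and 9 in Osr1 barcodes.

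**Figure D3:**
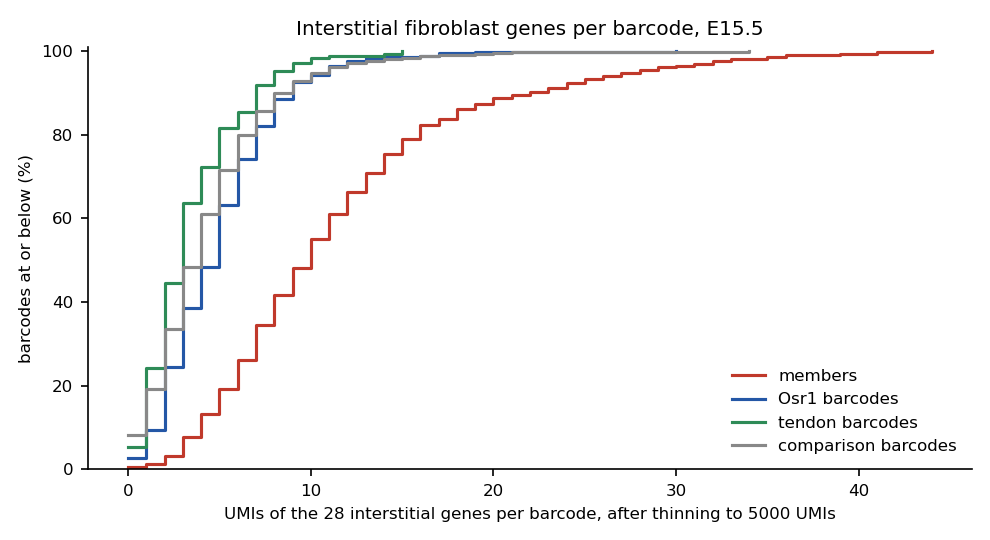
Cumulative share of barcodes, in percent, against the UMIs of the 28 interstitial fibroblast genes per barcode after thinning to 5000 UMIs, for the fibroblasts, the comparison, the Osr1 and the tendon barcodes. The curve of the fibroblasts lies to the right, with a median of 10 UMIs against 4, 5 and 3.

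Genes of parenchymal fibroblasts, which lie within organs next to the working cells, were mixed. Of 14 measured, 2 were at least 2-fold higher and 1 lower, with a median log2 ratio of 0.12. Apod, a lipid carrier, stood at 156 CPM against 36.2 (log2 2.11), and Smoc2, a matricellular calcium-binding protein, at 208 against 89.6 (log2 1.21). Col15a1, a basement membrane collagen, was the lower gene, at 3.05 CPM (1.84 to 4.77) against 19.7 (log2 -2.69). Against Osr1 barcodes 1 of the 14 was at least 2-fold higher and none lower, beside 1.57% and 0.605% of all genes. Against Pdgfra barcodes 1 was higher and 2 lower, beside 1.81% and 1.23%. The collagen IV chains Col4a1 and Col4a2 stood at 198 and 128 CPM against 300 and 173.

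Genes of the extracellular matrix were next. The count of each list, above and below, stands beside 2.24% of all genes higher and 1.8% lower than in the comparison barcodes. The lists share genes, so their counts are not separate results. Efemp1, Emilin2, Tnxb, Has1, Igfbp6, Sema3c and Dpp4 are counted in the interstitial list and again in another. Col15a1 is in both the parenchymal and the collagen list. Of 20 microfibril and elastic fibre genes, 6 were at least 2-fold higher and none lower (median log2 0.56). Fbn1 (chr2:125300594-125507993), the main microfibril protein, stood at 502 CPM (485 to 520) against 149 (log2 1.75, 1.69 to 1.82), while its relative Fbn2 stood at 668 against 505 (log2 0.40). The other 5 were the fibulins Fbln2 and Efemp1, the elastin-associated Emilin2, and Lox and Loxl1, which cross-link elastin and collagen. Efemp1 stood at 44.0 CPM against 10.2 (log2 2.11) and Lox at 281 against 110 (log2 1.35), but elastin itself (Eln) only at 221 against 143 (log2 0.63). Fbn1 ranged from 0 to 64 UMIs per fibroblast with a median of 4, and up to 32 in the comparison barcodes.

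Of 24 genes of collagens and their processing, 5 were at least 2-fold higher and Col15a1 was lower (median log2 0.69). Against Osr1 barcodes 4 of the 24 were higher by that size and none lower, beside 1.57% and 0.605% of all genes. Col1a1 stood at 5569 CPM against 2518 (log2 1.14) and Col1a2 at 5549 against 2630 (log2 1.08), in tendon barcodes at 5645 and 5078. Type I collagen thus set the fibroblasts apart from the mixed group but not from tendon. Col5a3, a minor type V chain, stood at 123 CPM against 24.4 (log2 2.34, 2.19 to 2.49) and at 3.58 in tendon barcodes. Col14a1 (chr15:55307750-55520803), which coats collagen fibrils, stood at 781 CPM against 222 (log2 1.81), with 276 in Osr1 and 311 in tendon barcodes. P4ha2, a collagen prolyl hydroxylase, was the last of the 5, at 104 CPM against 43.1.

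Of 8 small leucine-rich proteoglycans, Dcn (2175 CPM against 835, log2 1.38), Prelp (30.4 against 10.3) and Aspn (306 against 145) were at least 2-fold higher and none was lower. Fibromodulin (Fmod), a tendon proteoglycan that helped to define the tendon barcodes, stood at 19.9 CPM against 32.8. Among 22 matrix glycoproteins and hyaluronan genes, 9 were at least 2-fold higher and Ccn2 was lower (median log2 0.79). Against Osr1 barcodes 7 of the 22 were higher by that size and none lower, beside 1.57% and 0.605% of all genes. Tnxb (chr17:34670535-34719815), tenascin X, stood at 120 CPM (112 to 129) against 24.97 (log2 2.26), at 39.0 in Osr1 and 1.53 in tendon barcodes, whereas its relative Tnc stood at 30.5 against 59.1 (log2 -0.95). The tenascins thus differed in opposite directions. In the same list the CCN proteins were split against the comparison barcodes, with Ccn3 at 173 CPM against 31.2 (log2 2.47, 2.35 to 2.60) and Ccn2 at 9.48 against 20.6 (log2 -1.12).

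The hyaluronan system was also uneven. Has1, a hyaluronan synthase, stood at 26.5 CPM (22.6 to 30.9) against 3.61 (log2 2.88, 2.52 to 3.24), while Has2 stood at 100.6 against 103. Cd44, the hyaluronan receptor, stood at 168 CPM against 52.6 (log2 1.68), Tnfaip6, which links hyaluronan to proteins, at 138 against 65.5, and Ugdh, which makes a sugar precursor of hyaluronan, at 167 against 78.3. The hyaluronan-binding proteoglycan Vcan (779 CPM against 634) and the receptor Hmmr (99.9 against 84.7), which is also a cell cycle gene, stayed within 2-fold.

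Of 23 proteases and inhibitors, 7 were at least 2-fold higher and none lower (median log2 0.56). Cpz, a carboxypeptidase with a Wnt-binding domain, stood at 27.0 CPM against 4.96 (log2 2.44), and Mmp23 at 47.5 against 11.7 (log2 2.02). Fap, the fibroblast activation protease, stood at 101.04 against 46.0 (log2 1.14), and Adamts5, which cleaves proteoglycans, at 102 against 44.3. The other 3 were Htra3, Serpinf1 and Serping1, and Htra3 stood at 129 CPM in tendon barcodes against 61.0 here. Of 15 complement and cytokine genes, C1qtnf7 was higher (22.6 CPM against 7.36) and the chemokine Ccl11 lower (6.43 against 19.6).

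**Figure D4:**
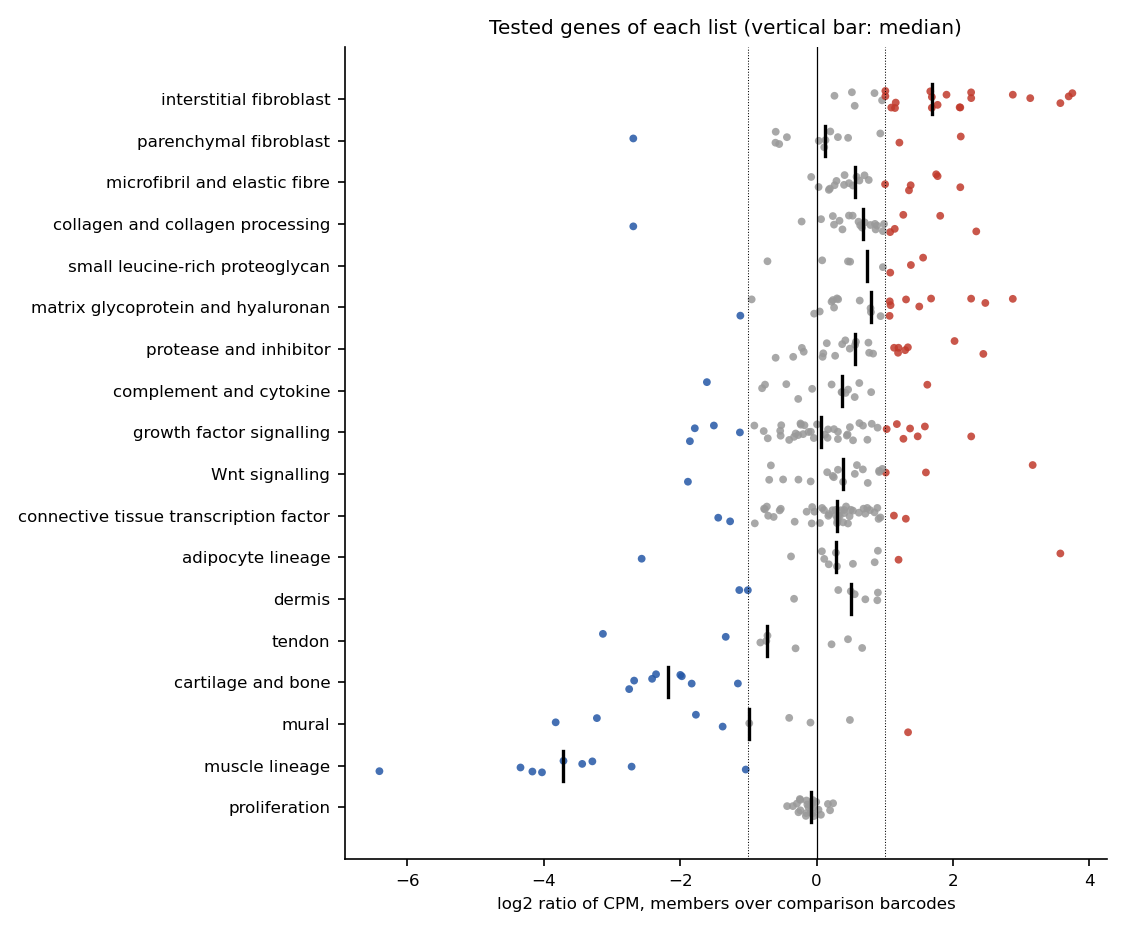
Log2 ratio of the fibroblasts over the comparison barcodes for every measured gene of 18 lists, 1 point per gene, with a bar at each list's median. The interstitial list has its median at 1.69 and the muscle list at -3.71. The rule barred Myog, Cdh5 and Ptprc UMIs in the fibroblasts and not in the comparison barcodes.

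Growth factor genes differed in both directions. Of 44 growth factor genes, 7 were at least 2-fold higher and 4 lower, with a median log2 ratio of 0.064. Against Osr1 barcodes 2 were higher by that size and 4 lower (median log2 0.0024), and against Pdgfra barcodes 5 and 5. Over all genes, 2.24% were higher and 1.8% lower than in the comparison barcodes. Against Osr1 barcodes these shares were 1.57% and 0.605%, and against Pdgfra barcodes 1.81% and 1.23%. Fgf7 stood at 54.5 CPM against 19.5 (log2 1.48), Fgf10 at 49.96 against 19.3 (log2 1.37) and Fgf18 at 61.5 against 27.2 (log2 1.18). These FGF ligands act on neighbouring epithelium or skeleton in other settings. Igfbp6, a binding protein that prefers IGF2, stood at 94.0 CPM against 19.5 (log2 2.27), and Fst, the activin and myostatin antagonist follistatin, at 178 against 73.8 (log2 1.27). Bmp3 and Fstl1 were the other two. The lower genes were Pdgfa (19.6 CPM against 71.1), the receptor Fgfr2, Igfbp2 and the hedgehog receptor and target Ptch1 (13.7 against 47.1, log2 -1.79). Vegfd, a lymphatic growth factor among the 20 highest genes, stood at 57.2 CPM against 13.2 (log2 2.12, 1.90 to 2.33).

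Of 21 measured Wnt pathway genes, Wnt2, Wnt5a and Sfrp4 were at least 2-fold higher and Wif1 lower (median log2 0.39). Wnt2 (chr6:17988940-18030585), a secreted ligand, stood at 53.7 CPM (48.1 to 59.7) against 5.97 (5.12 to 6.92), log2 3.17 (2.90 to 3.44), with 6.61 in Osr1 and 3.83 in Pdgfra barcodes. It was found in 16.9% of the fibroblasts at 5000 UMIs, in 2.04% of the comparison and in 1.5% of the Cdh5 barcodes (29.0% and 3.92% of the first 2 groups without thinning). Wnt5a stood at 170 CPM against 84.0 (log2 1.01) and Wif1, a Wnt inhibitor, at 4.98 against 18.4. Axin2, a common readout of Wnt signalling, stood at 14.5 against 23.4 (log2 -0.70).

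Transcription factors differed less. Of 48 on the connective tissue list, Klf4 and Tbx5 were at least 2-fold higher, and Tbx4 was among those lower (median log2 0.30). Klf4, a zinc finger factor, stood at 975.2 CPM (951 to 1000) against 445 (log2 1.13), at 555 in Osr1 and 257 in tendon barcodes. It is also an early response gene, and Fos and Jun, which respond to handling of cells, stood at 1259 and 948 CPM against 1072 and 880. The part of that response in Klf4 was not tested. Osr1 itself stood at 145 CPM against 75.9 (log2 0.93) and was found in 42.7% of the fibroblasts at 5000 UMIs, so that many of them also had the transcript that defines the Osr1 barcodes. Gata6, among the 20 highest genes, stood at 37.1 CPM against 8.43 (log2 2.14, 1.87 to 2.40). Of 12 adipocyte lineage genes measured, Cebpd and Dpp4 (also on the interstitial list) were at least 2-fold higher. Fabp4, which is also an endothelial gene (found in 75.2% of Cdh5 barcodes), was lower. The rule barred Cdh5 UMIs from the fibroblasts and not from the comparison barcodes, which bears on Fabp4. Against Osr1 barcodes 2 of the 12 were higher by that size and none lower, beside 1.57% and 0.605% of all genes. Adipoq had 0 UMIs.

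Genes of other limb cell types were compared as lists. The rule barred Myog, Cdh5 and Ptprc UMIs from the fibroblasts but not from the comparison barcodes. Of the latter, 295 had such a UMI. The rule itself thus bears on muscle, endothelial and immune values against them, which are a description here, above and in the next paragraph. All 9 measured muscle genes were at least 2-fold lower than in the comparison barcodes. Against Osr1 barcodes, which had the same exclusion, only 2 genes of the list were lower by that size, beside 0.605% of all genes. The 15 muscle genes summed to 64.3 CPM in the fibroblasts against 636, and to 80.4 in Osr1, 38.9 in tendon and 104 in Pdgfra barcodes, with Myf6 at 0 in the fibroblasts. The ratios of 4 muscle genes changed sign with other comparison barcodes or depths (Des, Acta1, Tnnc1 and Tnni1). All 8 measured cartilage and bone genes were at least 2-fold lower (median log2 -2.18), with Col2a1 at 33.1 CPM against 211 and Bglap at 0; 3 of the 8 were also lower by that size than in Osr1 barcodes, where 0.605% of all genes were. Of 9 tendon genes, Scx (5.14 CPM against 45.1) and Tnmd (46.4 against 117) were lower, and tendon barcodes had 437 and 1364 CPM of these, which helped to define them. None of the 9 was lower by that size than in Osr1 barcodes, where 0.605% of all genes were. The 12 tendon genes summed to 639 CPM in the fibroblasts and 553 in Osr1 barcodes.

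The 13 immune genes summed to 11.6 CPM against 185, and to 11.7 in Osr1 barcodes. The 9 Schwann genes summed to 89.5 against 178, but to only 46.0 in Osr1 and 16.4 in tendon barcodes. S100b made 71.8 of the sum in the fibroblasts and was higher than in the comparison barcodes (30.8 CPM, log2 1.22) and the Osr1 barcodes (32.6 CPM). The 8 epithelial genes summed to 4.66 against 33.7, with Cdh1 at 0. Of 9 mural genes, Rgs5 (3.05 CPM against 43.3), Acta2, Tagln and Mcam were lower, while Kcnj8, a potassium channel of pericytes, was higher at 44.3 against 17.5. Against Osr1 barcodes none of the 9 was at least 2-fold higher and 2 were lower, beside 1.57% and 0.605% of all genes. The 8 erythroid genes summed to 1858 and 1713 CPM, and a single fibroblast barcode held 3019 of the 5597 Hbb-bs UMIs. The embryonic globin gene Hbb-y was the 1 of 5 measured that was at least 2-fold lower, at 2.57 CPM against 43.8 (3.13 in Osr1 barcodes). The 12 lowest genes over the transcriptome (Myh3, Cpa3, Tnnc2, Cma1, Mylpf, Actc1, Pax7, Tnni1, Srgn, Rgs5, Msc and Acta1) are known from muscle, mast or mural cells. Of the 12, 5 were at least 2-fold lower than in Osr1 barcodes too, beside 0.605% of all genes.

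Cell cycle genes were nearly level. The 25 proliferation genes summed to 3140 CPM in the fibroblasts and 3362 in the comparison barcodes, a log2 ratio of -0.098 (-0.12 to -0.076). None of the 25 differed 2-fold. The sign was not stable: the ratio was 0.023 against comparison barcodes of like depth, 0.089 with 3 UMIs per rule gene, 0.13 with all 3 rule genes and 0.20 within forelimb barcodes. At 5000 UMIs, Top2a or Mki67 was found in 34.3% of the fibroblasts (30.1 to 38.6), 41.5% of the comparison (39.6 to 43.4), 39.4% of the Osr1 and 45.7% of the tendon barcodes. Unthinned, the first 2 shares were 43.1% and 48.6%. Hmga2, a chromatin protein of early embryonic growth, was at least 2-fold lower than in the comparison barcodes, at 40.8 CPM against 93.8 (log2 -1.20).

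Limb of origin could be read in part from Tbx5, a forelimb factor, and from Tbx4 and Pitx1 of the hindlimb. The fibroblasts held 170 UMIs of Tbx5, 36 of Tbx4 and 395 of Pitx1, and the comparison barcodes 327, 466 and 3182. The log2 ratio of Tbx5 to Tbx4 was thus 2.24 (1.71 to 2.80) in the fibroblasts and -0.51 (-0.72 to -0.30) in the comparison, with 0.034 in Osr1 barcodes. Barcodes with Tbx5 and neither hindlimb gene made up 105 of the fibroblasts (20.9%, 17.4 to 24.7) and 6.11% of the comparison (5.25 to 7.06). Barcodes with Tbx4 or Pitx1 and no Tbx5 made up 27.8% and 49.1%. The share of barcodes with Tbx5 alone was thus larger among the fibroblasts. These shares were taken without thinning, and the fibroblasts were deeper (medians of 11176 and 9392.5 UMIs). Limb of origin and the level of these genes in a cell type cannot be told apart here. The same holds for the ratios of Tbx5 and Tbx4 above. Forelimb and hindlimb barcodes are named by these UMIs only.

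Between the 105 forelimb and 140 hindlimb fibroblasts, 138 genes (1.61%) were at least 2-fold higher in the forelimb and 131 (1.53%) lower. Tbx5, Tbx4 and Pitx1, which define this split, were not left out of the genes compared, so the counts are a description. Hoxc10, of the hindlimb Hox code, stood at 6.27 CPM in forelimb and 62.6 in hindlimb fibroblasts (log2 -3.32, -4.49 to -2.34). Pi16 stood at 12.55 and 38.5 CPM (log2 -1.62, -2.46 to -0.85), and Tnxb at 180 and 78.9 (log2 1.19, 0.88 to 1.5). Htr1f, a serotonin receptor gene, stood at 21.6 CPM in forelimb fibroblasts from 31 UMIs and at 5.42 from 9 UMIs in the hindlimb. Sfrp2, a Wnt modulator, stood at 122 and 449 CPM (log2 -1.88). Within forelimb barcodes all 20 highest genes were again at least 2-fold higher than in the comparison barcodes, and within hindlimb barcodes 19 of 20, with Sqor at a log2 ratio of 0.99.

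Both sexes were present. UMIs of Y-linked genes without Xist were found in 81 fibroblasts (16.1%) and Xist without Y-linked UMIs in 385 (76.5%), against 18.1% and 70.8% of the comparison barcodes. Within male and within female barcodes, all 20 highest genes were at least 2-fold higher in the fibroblasts, with median log2 ratios of 2.61 and 2.43. The 20 genes were picked on these same barcodes pooled, so the tallies by sex and by limb are a description and no separate support.

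The fibroblasts with all 3 rule genes, compared with those with exactly 2, had 71 genes at least 2-fold higher (0.832%) and 30 lower (0.351%). Ly6a stood at 91.3 CPM against 14.6 (log2 2.65, 2.21 to 3.12), Wnt2 at 86.3 against 27.1 (log2 1.67), Pi16 at 41.9 against 14.3 (log2 1.55) and Dpp4 at 58.0 against 21.3 (log2 1.45). The split uses the values of the rule's own genes, so these ratios are a description. Depth differed in the same direction, with medians of 12841.5 and 10471 UMIs. Its part in these ratios was not tested.

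Spread beyond counting noise was given as the Fano factor, the variance of the UMIs over their mean at 5000 UMIs per barcode, which is 1 for pure counting. Over 3826 genes with a mean of at least 0.2 UMIs the median was 1.10, and 252 genes exceeded 2. Col1a1, Col1a2, Ptn and the cell cycle genes Top2a, Hmgb2 and Hist1h1b were among the 12 highest. Of the others, Malat1 was found in 502 fibroblasts, while for a few genes 1 barcode held much of the total. A single barcode held 136 of the 355 UMIs of Nol4l, where the next had 98, and another held 208 of 561 for Zfp318, where the next had 75. Across the 496 thinned fibroblasts, which share 1 library, Pearson's r was 0.91 between Col1a1 and Col1a2, 0.80 between Top2a and Hmgb2, 0.53 between Pi16 and Cd55, 0.37 between Pi16 and Mfap5, 0.35 between Ly6a and Cd55 and 0.31 between Wnt2 and Tek. Pi16 and Cd55 were thus the closest pair among the surface genes, as a description of these barcodes.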

How the data were processed

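The deposited files hold raw UMI counts per gene and barcode, written by Cell Ranger per the file headers; per the submitters' processing notes, Cell Ranger 4.0.0, Seurat 4.3.0 and mm10 were used. Each matrix lists 32285 genes, and 78 share a symbol with another row. Droplet libraries came from the 10x 3-prime v3.1 kit, per the labels' protocols. The barcodes, the lists and the rule were chosen with earlier results of these data known, so lists are described and not tested.

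UMIs were summed over the barcodes of a group and scaled to CPM. Intervals (95%) are exact Poisson for CPM, exact conditional for ratios and Clopper-Pearson for shares, and cover counting error only. A 0 was set to a floor of 3 counts in ratios. Where a share was 0, the limit given after it is 3 counts over the group's barcodes, unless called exact. Genes with a mean of at least 10 CPM were measured, and a 2-fold ratio counted as higher or lower. For shares, barcodes were thinned to 5000 UMIs, or 2000 between ages. Named genes are those of 29 lists, the 20 highest and 12 lowest ratios and the 12 highest Fano factors, with rule, mitochondrial, ribosomal, globin, sex-linked and unnamed genes left out of the rankings. Doublets stayed in; removing the highest-scoring 190 barcodes (4.63%), 39 of them among the 503, was an alternative. The other alternatives changed the barcode filter, the rule, the depth, the comparison barcodes, the scaling and the limb or sex. Gene positions are from GENCODE vM21 (GRCm38). The code was tested on simulated data. Python 3.11.15 with numpy 2.4.6, scipy 1.17.1, pandas 2.3.3, scikit-learn 1.9.0 and matplotlib 3.10.9 was used.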

Additional observations from a re-analysis of the deposited data

How the results depend on the processing

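The share of 12.3% became 13.4% with under 5% mitochondrial UMIs, 18.5% with 1 UMI per rule gene, 8.35% with 3, 4.92% with all 3 rule genes and 7.96% after thinning to 5000 UMIs. The 194 higher and 156 lower genes became 121 and 95 against comparison barcodes with 20 or more Col3a1 UMIs, 341 and 260 against those with no rule-gene UMI, 308 and 295 in male barcodes alone, and 73 and 18 with a mean of at least 50 CPM. Of the interstitial list, 10 genes were higher at that CPM minimum, and 11 within forelimb barcodes with the minimum of 10 CPM applied to those barcodes (13 of the 19 without it).

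The proliferation list log2 ratio of -0.098 became -0.15 with 1 UMI per rule gene, 0.089 with 3, 0.13 with all 3 rule genes, -0.050 against comparison barcodes without Myog, Cdh5 and Ptprc, -0.25 against those with no rule-gene UMI, 0.023 at like depth, -0.073 with barcodes weighted equally, -0.15 and -0.13 in male and female barcodes, and 0.20 and 0.0087 in forelimb and hindlimb barcodes. Single genes that changed sign were Des (0.49 after thinning, 0.047 with 20 Col3a1 UMIs, 0.61 against Pdgfra barcodes, 0.16 in hindlimb), Acta1 and Tnnc1 (0.14 and 0.049 without Myog, Cdh5 and Ptprc), Tnnc1 and Tnni1 (0.24 and 0.28 against Pdgfra barcodes), Sostdc1 (0.086 in male and 0.82 in forelimb barcodes) and Igfbp2 (0.39 in forelimb). Of 123 named genes past 2-fold, 35 fell under it with 20 Col3a1 UMIs, 31 against Pdgfra barcodes and 19 after thinning, and of 121, 32 in forelimb and 37 in hindlimb barcodes; besides those that changed sign, the other settings lost 0 to 13. The cause was not tested. The Pdgfra, forelimb and hindlimb alternatives were chosen after seeing the data.

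Depth limits detection per barcode, and free RNA and doublets can add to it, so a share is not the share of cells that use a gene. No paired analysis was possible because each age has 1 library and the labels give no replicate numbers.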

Other observations

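Of 27 guidance and adhesion genes, Sema3c, Sema3d and Ntn1 were at least 2-fold higher and Unc5c lower, beside 2.24% and 1.8% of all genes. Sema3d, a secreted semaphorin, stood at 66.5 CPM against 19.4 (log2 1.78), and Ntn1, the guidance cue netrin, at 40.2 against 14.04 (log2 1.52). Of 17 imprinted and early growth genes, Hmga2 alone differed 2-fold, but Dlk1, an imprinted gene of growing tissue, stood at 3207 CPM against 1721 (log2 0.90) and Meg3 at 5326 against 3197 (log2 0.74). The cell cycle inhibitor Cdkn1c, also imprinted, stood at 5775 CPM against 4094 (log2 0.50). Of 9 Hox genes measured, Hoxc11 was lower (7.55 CPM against 16.4).

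Has1 was not confined to E15.5: it stood at 11.8 CPM in E12.5 barcodes with at least 3 Col3a1 UMIs, from 210 UMIs, whereas Ly6a had 3 UMIs and Dpp4 had 5 in the same barcodes. The fibroblasts with a Tbx5 UMI alone had Smoc2 at 270 CPM against 110 in those with hindlimb genes alone (log2 1.29), and Epha3 at 72.5 against 22.3 (log2 1.70).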
